A study of Rattus norvegicus with 86 samples.

Results

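The genes described here are 6 that mark inhibitory neurons of the striatum: Gad1 (ENSRNOG00000000007), Gad2 (ENSRNOG00000018200), Sst (ENSRNOG00000001837), Npy (ENSRNOG00000046449), Pvalb (ENSRNOG00000006471) and Nos1 (ENSRNOG00000001130). They were chosen by name as genes of GABA synthesis and of striatal interneurons, and were found by their Ensembl identifiers, 6 of the 17180 in the table. RNA came from the nucleus accumbens core, part of the ventral striatum, which was dissected from frozen sections on both sides of the brain. The rats were of the Heterogeneous Stock (HS), which is outbred. They lived in groups, none had been treated or tested, and the labels divide them by sex and rat batch alone. Of 86 labelled samples, each from a different rat, 11 had been removed by the authors. This left 75 libraries, from 38 females and 37 males. Rat batch 2 held 2 females and 10 males, rat batch 3 held 13 and 7, rat batch 4 held 14 and 12, rat batch 5 was 1 female and rat batch 6 held 8 of each sex. The sources used here do not say what a rat batch is, and the labels give no age per rat. Each rat is called by its sex and a number, which carries no other meaning.

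Gad1 and Gad2 encode the 2 forms of glutamate decarboxylase, the enzyme that makes the transmitter GABA from glutamate. The protein of Gad1 is found throughout the neuron and that of Gad2 mainly at nerve terminals. In the striatum most neurons are GABAergic projection neurons, so both transcripts come from projection neurons as well as from interneurons. The other 4 genes mark sparse interneurons. Sst encodes the peptide somatostatin, Npy encodes neuropeptide Y and Nos1 encodes neuronal nitric oxide synthase, and the 3 are known to be made together in one class of low-threshold spiking striatal interneuron. Npy is also made by a further class, the neurogliaform cells. Pvalb encodes parvalbumin, a calcium-binding protein of fast-spiking interneurons. In tissue RNA such as this, fewer cells of a type and less RNA per cell cannot be told apart.

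Sst and Npy were the pair whose levels moved most closely together, and Sst is a textbook target of the cyclic AMP response element (CRE), the 8 bases TGACGTCA that the factor CREB binds. The RefSeq promoter windows of Sst, Npy and Nos1, the 3 genes known to share a cell class, are therefore shown, from 250 bases before to 50 after the annotated gene start in build GRCr8, with the CRE in capitals. All 6 genes were matched by symbol to this set of 33469 promoters. The Sst window is chr11:90461296-90461595 on the plus strand, the Npy window chr4:80211861-80212160 on the plus strand and the Nos1 window chr12:44371788-44372087 on the minus strand.
Sst: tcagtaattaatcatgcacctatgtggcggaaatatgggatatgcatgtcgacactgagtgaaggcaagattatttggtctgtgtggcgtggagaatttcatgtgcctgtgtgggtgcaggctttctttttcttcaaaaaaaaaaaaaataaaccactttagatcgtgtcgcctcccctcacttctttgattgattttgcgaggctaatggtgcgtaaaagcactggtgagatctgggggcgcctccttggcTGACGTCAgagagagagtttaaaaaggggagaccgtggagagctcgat
Npy: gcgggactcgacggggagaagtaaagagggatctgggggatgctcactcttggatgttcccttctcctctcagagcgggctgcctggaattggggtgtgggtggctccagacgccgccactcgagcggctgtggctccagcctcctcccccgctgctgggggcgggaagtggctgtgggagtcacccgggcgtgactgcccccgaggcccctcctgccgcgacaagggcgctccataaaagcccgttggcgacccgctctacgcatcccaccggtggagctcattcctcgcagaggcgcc
Nos1: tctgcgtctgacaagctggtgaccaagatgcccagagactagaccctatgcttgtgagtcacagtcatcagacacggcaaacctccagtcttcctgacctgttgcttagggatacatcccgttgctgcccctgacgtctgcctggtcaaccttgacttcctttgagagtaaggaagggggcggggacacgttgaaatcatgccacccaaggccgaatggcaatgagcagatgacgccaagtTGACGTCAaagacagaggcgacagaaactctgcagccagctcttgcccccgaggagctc
The letters reading TGACGTCA, which are the same on both strands, occurred once in the Sst window, beginning 2 bases after the annotated start, and once in the Nos1 window, beginning 9 bases before it. They were not in the windows of Npy, Gad1, Gad2 or Pvalb. Of all promoters searched, 612 (1.83%) held them. The letters TATAAA, searched on both strands, were found among the 6 genes only in the Gad1 window and in 14.2% of all promoters. GC content was 45.7% in the Sst window, below the median of 51.7% for all promoters, 55.3% in Nos1, 60.7% in Pvalb, 63.7% in Gad2 and 67.7% in both Gad1 and Npy. A match of letters is a description of these windows and no evidence of binding.

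Levels are given as log2(scaled count + 1), the deposited unit, in which a difference of 1 is a doubling. Levels of different genes are not ranked, since the values are not per length of transcript. Read totals recovered from the values ran from 8455381 to 26145621 per library, with a median of 17804714. In these totals Gad2 had between 6913 and 39082 counts per library, Gad1 between 5500 and 18683, Sst between 1116 and 5275, Npy between 597 and 1958, Nos1 between 176 and 1342 and Pvalb between 21 and 243. Pvalb was therefore the gene with the least counting precision. No gene was at 0 in any library, and none shared all of its values with another identifier.

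Of the 6, the synthesis genes had the narrowest ranges over the libraries. Gad1 had a lowest level of 13.30 (male 11), a median of 13.64 and a highest of 13.97 (female 33), a range of 1.60-fold. Its mean was 13.63 ± 0.14 (SD, n = 75). Gad2 ran from 13.86 in female 31 through a median of 14.49 to 14.76 in male 6, a range of 1.87-fold, with a mean of 14.45 ± 0.18 (SD, n = 75). The next lowest Gad2 levels were those of male 25 (13.88) and male 2 (14.08), both of rat batch 2.

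The interneuron genes had wider ranges. Sst ran from 10.19 in female 20 through a median of 11.38 to 12.24 in female 4, a range of 4.15-fold, with a mean of 11.36 ± 0.41 (SD, n = 75). Npy ran from 9.33 in female 5 through a median of 9.91 to 10.81, a range of 2.79-fold, with a mean of 9.97 ± 0.34 (SD, n = 75). Female 4 was the highest library for Npy as it was for Sst. Nos1 ran from 7.97 in female 35 through a median of 9.13 to 9.95 in female 31, a range of 3.96-fold, with a mean of 9.10 ± 0.39 (SD, n = 75). Pvalb ran from 4.70 in male 10 through a median of 6.0 to 7.79 in female 37, a range of 8.54-fold, with a mean of 6.07 ± 0.73 (SD, n = 75). Female 31, the library with the lowest Gad2, was thus also the one with the highest Nos1.

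**Figure D1:**
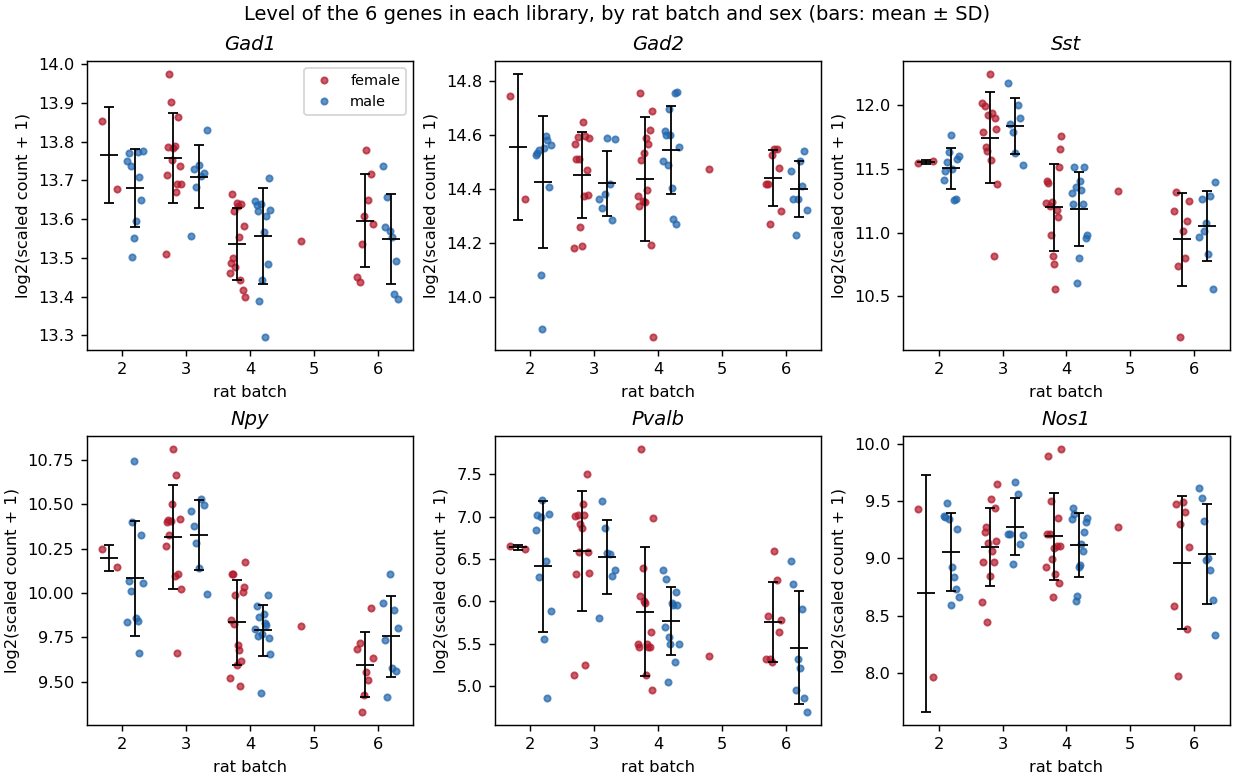
Level of each gene in each library, as log2(scaled count + 1) on the vertical axis, against rat batch, with females in red and males in blue; the horizontal mark is the mean and the bar 1 SD. The sexes overlap in rat batches 3, 4 and 6, while Gad1, Sst, Npy and Pvalb sit lower in rat batches 4 and 6 than in 2 and 3 and Gad2 and Nos1 do not.

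The spread between rats of one sex and rat batch, after the means of these groups had been removed, was far above counting error for each gene. It was an SD of 0.11 on the log2 scale for Gad1, 0.18 for Gad2, 0.30 for Sst, 0.24 for Npy, 0.63 for Pvalb and 0.39 for Nos1. Counting error alone would give 0.013 for Gad1, 0.010 for Gad2, 0.030 for Sst, 0.048 for Npy, 0.19 for Pvalb and 0.065 for Nos1. Genes of like level offer a scale for these values. Among the 500 genes nearest in mean level, Sst stood at the 98th percentile of the SD, where the median gene had 0.14. Nos1 stood at percentile 96.8, Npy at 88.8, Pvalb at 87.2 and Gad2 at 79.8. Gad1 stood at percentile 25.2, below the median of its neighbours. Females and males had SDs of 0.35 and 0.24 for Sst and 0.45 and 0.33 for Nos1, and closer values for the other genes. The difference in spread between the sexes was not tested.

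**Figure D2:**
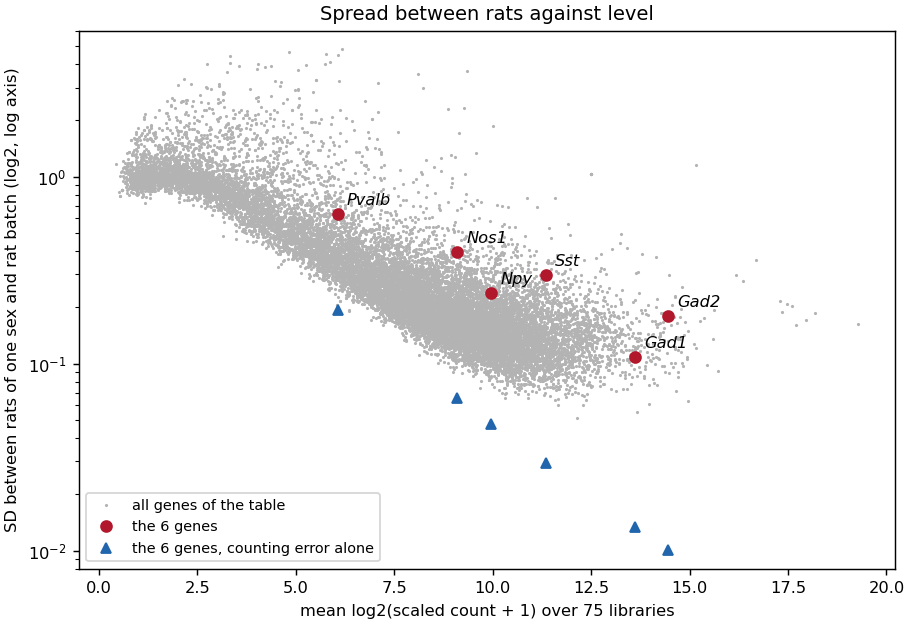
SD between rats of one sex and rat batch (vertical, log axis, log2 units) against the mean level over the 75 libraries, with every gene of the table in gray, the 6 genes in red and the SD that counting error alone would give them as blue triangles. Sst and Nos1 lie at the upper edge of genes of their level and Gad1 lies below the middle.

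The first comparison asked whether levels differed between the sexes. The lowest, median and highest levels of Sst were 10.19, 11.35 and 12.24 in the 38 females and 10.56, 11.40 and 12.17 in the 37 males. Those of Npy were 9.33, 9.997 and 10.81 in females and 9.41, 9.88 and 10.75 in males. Pvalb had 4.95, 6.03 and 7.79 in females and 4.70, 5.98 and 7.20 in males. The sexes overlapped over nearly their whole range in each case. Nos1 had 7.97, 9.12 and 9.95 in females and 8.33, 9.21 and 9.67 in males, so its extremes at both ends were females. The synthesis genes had medians of 13.64 in both sexes for Gad1 and of 14.47 in females and 14.50 in males for Gad2. None of the 6 genes was called (limma, Benjamini-Hochberg over all genes, adjusted p under 0.05), against 0.0873% of all genes. None of the 6 had a limma unadjusted p under 0.05, against 1110 of all 17180 genes. The male minus female difference, on the log2 scale with rat batch as a covariate, was -0.026 ± 0.027 (SE) for Gad1 and 0.011 ± 0.044 for Gad2. It was 0.040 ± 0.070 for Sst, 0.012 ± 0.057 for Npy, -0.16 ± 0.15 for Pvalb and 0.074 ± 0.093 for Nos1. The limma adjusted p lay between 0.908 (Pvalb) and 0.988 (Npy). The 95% intervals were -0.080 to 0.028 for Gad1, -0.076 to 0.098 for Gad2, -0.10 to 0.18 for Sst and -0.10 to 0.13 for Npy. Those of Pvalb (-0.45 to 0.14) and Nos1 (-0.11 to 0.26) were wider. Male minus female means in the single batches kept one sign for Pvalb alone, from -0.069 in batch 3 to -0.30 in batch 6. The interaction of sex and rat batch, fitted on rat batches 3, 4 and 6, was not called for any of the 6 genes (unadjusted p between 0.258 and 0.834).

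The second comparison asked whether levels differed between rat batches. Gad1, Sst, Npy and Pvalb did, and Gad2 and Nos1 were not called, in a limma F test that called 53.5% of all genes. The share of 4 of 6 is therefore near that of the whole table. The limma adjusted p was 1.07e-10 for Npy, 3.09e-10 for Sst, 1.19e-06 for Gad1 and 3.67e-05 for Pvalb, and 0.386 for Nos1 and 0.714 for Gad2.

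Sst, the somatostatin gene, had its highest levels in rat batch 3. Its lowest, median and highest levels were 11.25, 11.55 and 11.77 in rat batch 2 (n = 12) and 10.81, 11.83 and 12.24 in rat batch 3 (n = 20). They were 10.56, 11.23 and 11.76 in rat batch 4 (n = 26) and 10.19, 11.04 and 11.40 in rat batch 6 (n = 16). The ranges overlapped, but 18 of the 20 libraries of rat batch 3 lay above every library of rat batch 6. Npy followed the same order of batches. Its 3 values were 9.66, 10.07 and 10.75 in rat batch 2 and 9.66, 10.39 and 10.81 in rat batch 3. In rat batch 4 they were 9.43, 9.82 and 10.18, and in rat batch 6 they were 9.33, 9.66 and 10.11. Here 15 of the 20 libraries of rat batch 3 lay above every library of rat batch 6.

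Pvalb, the marker of fast-spiking cells, had lowest, median and highest levels of 4.86, 6.64 and 7.20 in rat batch 2 and 5.13, 6.58 and 7.51 in rat batch 3. They were 4.95, 5.67 and 7.79 in rat batch 4 and 4.70, 5.48 and 6.60 in rat batch 6. The batches overlapped widely, and the highest library of all, female 37, was in rat batch 4. Its mean was 6.45 ± 0.70 (SD, n = 12), 6.57 ± 0.61 (n = 20), 5.83 ± 0.61 (n = 26) and 5.604 ± 0.58 (n = 16) in rat batches 2, 3, 4 and 6. Gad1 had means of 13.70 ± 0.10, 13.74 ± 0.11, 13.55 ± 0.11 and 13.57 ± 0.12 in the same batches, a small shift against a small spread. Quantile normalization reduced the Gad1 difference of rat batches 4 and 6 from 2 and 3, from -0.16 to -0.071 (limma adjusted p = 0.0177), and called Gad2 (0.17, adjusted p = 0.00231). Gad2 stayed between means of 14.42 and 14.49, and Nos1 between 8.996 and 9.16. Sst minus Npy, the log2 ratio of the 2 peptide transcripts, had batch means of 1.41, 1.46, 1.38 and 1.32 in the same order. The lone library of rat batch 5, female 14, had 13.54 for Gad1, 14.47 for Gad2, 11.32 for Sst, 9.81 for Npy, 5.36 for Pvalb and 9.28 for Nos1, each within the range of rat batch 4.

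Taken as pairs of batches from the same fit, rat batches 4 and 6 were each lower than 2 and 3 in all 4 called genes. Of all genes, limma called 20.8% higher and 22.3% lower in rat batch 6 than in 3. There Sst differed by -0.78 ± 0.096 (SE, log2, adjusted p = 5.92e-10), a ratio of 0.581, and Npy by -0.65 ± 0.079 (adjusted p = 4.44e-10), a ratio of 0.639. Pvalb differed by -0.94 ± 0.20 (adjusted p = 1.16e-04), a ratio of 0.521, and Gad1 by -0.17 ± 0.037 (adjusted p = 1.84e-04), a ratio of 0.892. From rat batch 3 to 4, with 19.6% of all genes called higher and 20.3% lower, the differences were -0.59 for Sst, -0.51 for Npy, -0.72 for Pvalb and -0.19 for Gad1. From rat batch 2 to 4, with 13.7% of genes higher and 13.2% lower, they were -0.30, -0.28, -0.68 and -0.16. From rat batch 2 to 6, with 16.9% higher and 17.9% lower, they were -0.50, -0.42, -0.90 and -0.13. The limma adjusted p of these last 12 values was at most 0.0209 (Sst, batch 2 to 4).

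No gene of the 6 was called by limma between rat batches 2 and 3, where 1.48% of all genes were higher and 1.96% lower in batch 3. Sst (0.28 ± 0.11, SE, adjusted p = 0.123) and Npy (0.22 ± 0.090, adjusted p = 0.135) were the 2 of the 6 with a limma unadjusted p under 0.05 there. Of all 17180 genes, 3452 had one. None was called between rat batches 4 and 6 either, where 2.47% of genes were higher and 1.40% lower in batch 6. Sst, at -0.20 ± 0.091 (limma adjusted p = 0.211), was the 1 gene of the 6 with an unadjusted p under 0.05, against 3328 of all 17180 genes.

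Rat batch moved together with the order of columns in the deposited table. The column names run through their sorted order 3 times, and each such run of columns held certain batches. Run 1 held the 12 libraries of rat batch 2 and 7 of rat batch 3, run 2 held 12 of rat batch 3, and run 3 held 1 of rat batch 3 and all libraries of rat batches 4, 5 and 6. What a column run stands for is not given in the sources used here. With the run as a covariate, limma called 169 genes of the table (0.984%) between rat batches and none of the 6, so nothing particular to the 6 can be read from that count. The adjusted p was then 0.369 for Sst, 0.612 for Npy, 0.444 for Gad1 and 0.773 for Pvalb. In that fit, batches of run 3 are linked to rat batches 2 and 3 by 1 library, female 3. That rat, of batch 3 by its label, had 10.81 for Sst, 9.66 for Npy and 5.25 for Pvalb, each below every library of rat batch 3 in column runs 1 and 2 except for Pvalb in female 26 (5.13).

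Comparisons inside one batch or one run were chosen after these values had been seen. Within rat batch 3, Sst was at 11.62 ± 0.16 in the 7 libraries of run 1 and 11.95 ± 0.14 in the 12 of run 2 (SD). The run 2 minus run 1 difference was 0.34 ± 0.068 (SE, limma adjusted p = 0.00392), in a fit that called 5.34% of genes higher and 5.72% lower. Npy rose likewise, from 10.16 ± 0.15 to 10.47 ± 0.15, by 0.32 ± 0.068 (adjusted p = 0.00529). Gad2 fell, from 14.57 ± 0.059 to 14.35 ± 0.12, with a difference of -0.22 ± 0.051 (adjusted p = 0.00909). Gad1 (-0.13 ± 0.045, adjusted p = 0.0781), Nos1 (-0.25 ± 0.13, adjusted p = 0.254) and Pvalb (-0.23 ± 0.24, adjusted p = 0.633) were not called by limma. Over the whole of rat batch 3 the SD of Sst was 0.31, so part of its spread between rats there went with the column run. Rat batches 4 and 6, which lay inside run 3, had SDs of 0.31 and 0.32 for Sst.

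Inside a run, no gene of the 6 was called between batches. Within column run 1, rat batch 3 minus rat batch 2 was 0.075 ± 0.083 (SE) for Sst, -0.0082 ± 0.14 for Npy and 0.091 ± 0.059 for Gad1. It was 0.090 ± 0.11 for Gad2, 0.16 ± 0.33 for Pvalb and 0.47 ± 0.23 for Nos1, the largest of the 6 (limma unadjusted p = 0.0548). The limma fit called 0% of all genes in either direction, and 553 genes of the table but none of the 6 had an unadjusted p under 0.05. Within column run 3, rat batch 6 minus rat batch 4 was -0.20 ± 0.096 for Sst (limma adjusted p = 0.262) and -0.14 ± 0.064 for Npy (adjusted p = 0.229). Those 2 genes had an unadjusted p under 0.05, as did 3200 of all 17180 genes. None of the 6 was called, while 1.72% of all genes were called higher and 0.873% lower. Rat batch and column run cannot be told apart for the difference between rat batches 2 and 3 and rat batches 4 and 6.

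**Figure D3:**
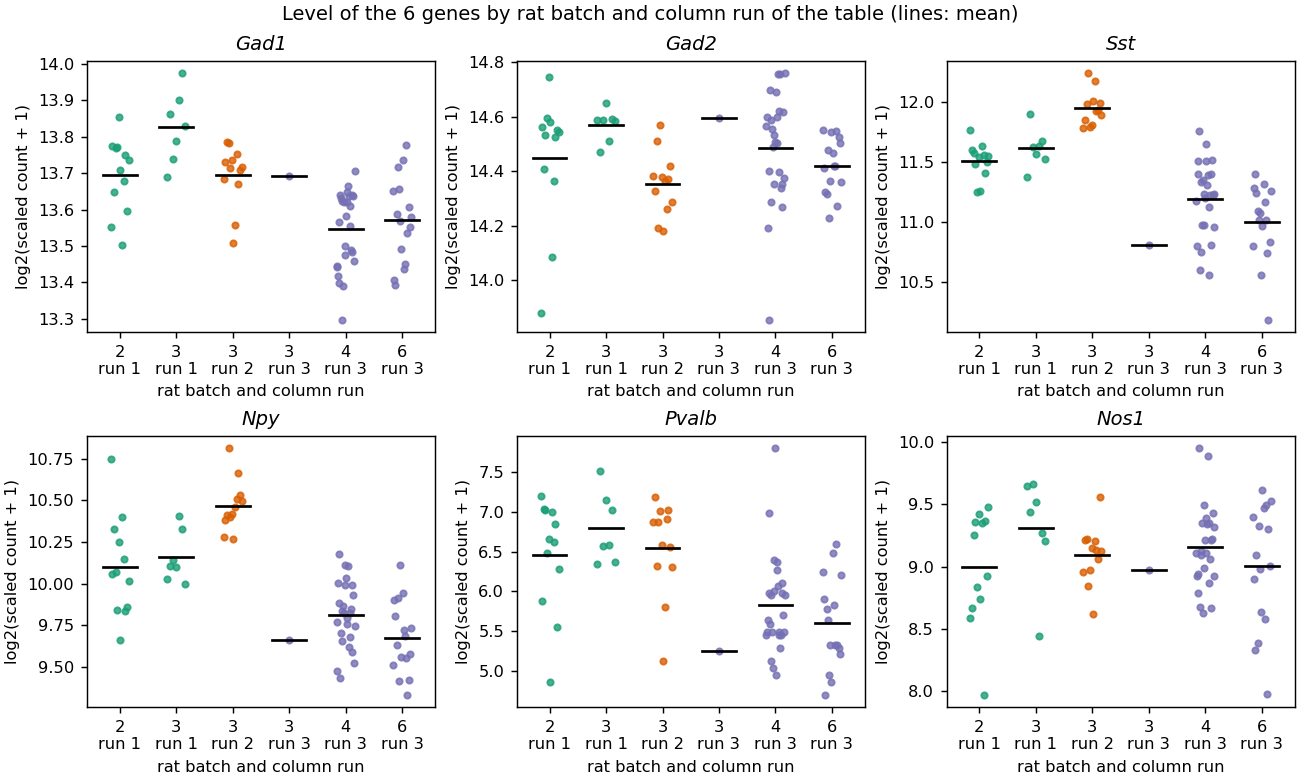
Level of each gene, as log2(scaled count + 1), in each library by rat batch (upper label) and run of columns in the table (lower label, one color per run), with a line at the mean. Within rat batch 3, Sst and Npy are higher and Gad2 lower in run 2 than in run 1, and the 1 library of rat batch 3 in run 3 sits among the levels of rat batches 4 and 6 for Sst, Npy and Pvalb.

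The third question was which of the genes moved together from rat to rat. Correlations were computed over 74 libraries after the mean of each sex and rat batch had been removed, with 100000 permutations of libraries within these groups, two-sided. Each pair was also tested by limma with one gene as the covariate for every other gene of the table, adjusted over all 17179, and was called where the larger of the 2 adjusted p-values was under 0.05. Of the 15 pairs, 6 were called. These covariate fits called many genes of the table in either direction, at 32.9% with Gad2 as the covariate, 32.2% with Sst, 23.4% with Npy, 20.5% with Nos1, 9.96% with Gad1 and 7.46% with Pvalb. A call for one pair is thus no rare event in this table.

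The peptide genes Sst and Npy had the highest correlation of the 15. Pearson's r was 0.68 (permutation p = 1e-05, the smallest these permutations can give), Spearman's rho was 0.68 (permutation p = 1e-05) and the larger limma adjusted p was 8.04e-07. It was positive in each batch taken alone, both sexes together, with r = 0.88 in rat batch 2, 0.85 in batch 3, 0.67 in batch 4 and 0.55 in batch 6. Rat batch 3 spans the column runs, and run 2 minus run 1 was 0.34 for Sst and 0.32 for Npy there. The r of batch 3 takes in that difference, and r inside a run was not computed. Without female 3 and female 20, the 2 libraries whose Sst deviated most once the means of sex and rat batch were removed, r was 0.64. The libraries left out of the other pairs below were chosen likewise. With column run as a covariate it was 0.59 (limma adjusted p = 1.24e-04). The log2 ratio of Sst to Npy had an SD of 0.22 between rats, against 0.38 had the genes been uncorrelated.

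Placed among 12985 other genes with a mean level of at least 5, Sst had the highest positive correlation with Npy, while ENSRNOG00000021068 had a negative one of larger size (r = -0.70). In the other direction Npy was in place 55 for Sst, and in place 243 with column run as a covariate, 326 without rat batch 3 and 1 with 5 expression components as covariates. With column run as a covariate Sst took place 12 for Npy, and without rat batch 3 it took place 20, against place 3 without rat batch 4 and place 2 without rat batch 6. The slope of Npy on Sst was 1.77 in rat batch 2, 0.723 in batch 3, 0.421 in batch 4 and 0.345 in batch 6. With Sst as the covariate, limma called a difference between these slopes for Npy (adjusted p = 0.0327), as it did for 2.26% of genes. With Npy as the covariate and Sst as the response it was not called (adjusted p = 0.358), where 5.66% of genes were. The call rested on male 25 of rat batch 2, without which the limma adjusted p was 0.402 and the slope in that batch 1.40. The slope test was chosen after the values had been seen.

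**Figure D4:**
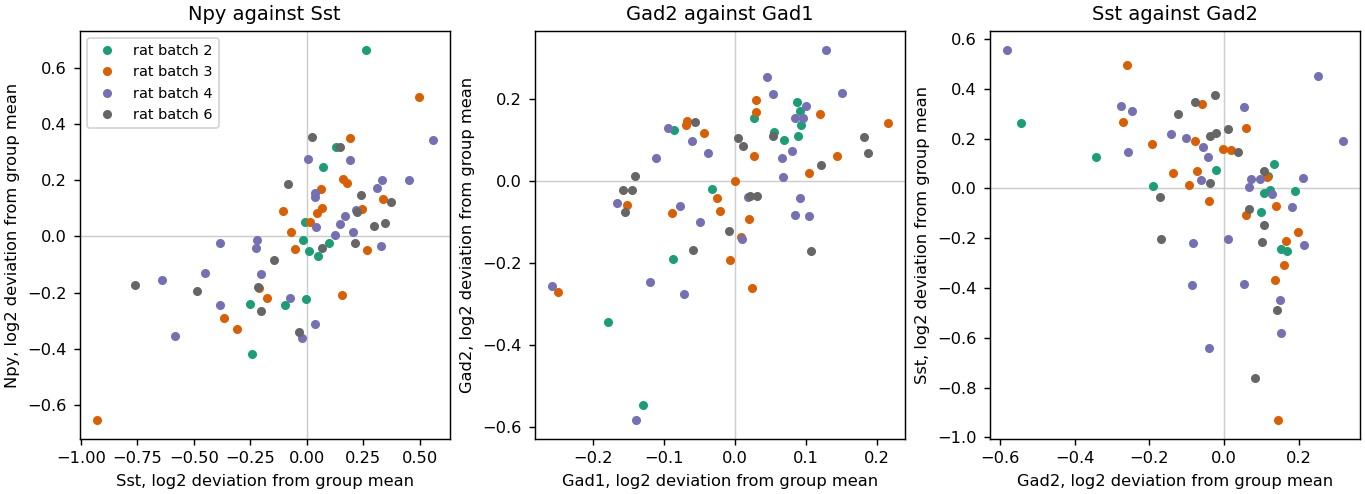
Deviation of each of 74 libraries from the mean of its sex and rat batch, in log2 units, for Npy against Sst, Gad2 against Gad1 and Sst against Gad2, colored by rat batch. Sst and Npy rise together (r = 0.68), as do Gad1 and Gad2 (r = 0.54), while Sst falls as Gad2 rises (r = -0.45); the point at the lower left of the first panel is female 3.

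Nos1, which is known to be made in the same interneuron class as Sst and Npy, was not called with either. Its r with Sst was 0.088 (permutation p = 0.481) and with Npy 0.055 (permutation p = 0.639). The sign differed between batches, and rat batch 4 had the highest values, 0.41 with Sst and 0.46 with Npy. With 5 expression components as covariates the r was 0.45 with Sst (limma adjusted p = 0.0882) and 0.25 with Npy (limma adjusted p = 0.690). Nos1 was instead called with Pvalb, at r = 0.44 (permutation p = 8e-05), rho = 0.47 and a larger limma adjusted p of 0.00454. That pair was positive in each batch, between 0.25 in rat batch 2 (0.38 without male 25) and 0.62 in batch 6, and r was 0.47 without female 37 and male 32. The call was lost without rat batch 4 (r = 0.43, limma adjusted p = 0.0617), without rat batch 6 (0.37, adjusted p = 0.0581) and with 5 expression components as covariates (0.34, adjusted p = 0.194). Pvalb was also called with Npy, at r = 0.45 (permutation p = 0.00049), rho = 0.38 and a larger limma adjusted p of 0.00366. It was positive in each batch, from 0.19 to 0.71. Without female 3 and male 25 its r was 0.36 (limma adjusted p = 0.0442). That call was lost without rat batch 2 (r = 0.37, limma adjusted p = 0.0671), with inverse normal values (0.43, adjusted p = 0.0545) and with 5 expression components as covariates (0.31, adjusted p = 0.613). Pvalb and Sst had r = 0.26 and were not called (limma adjusted p = 0.180).

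The enzymes Gad1 and Gad2 were called together, at r = 0.54 (permutation p = 1e-05), rho = 0.51 and a larger limma adjusted p of 3.05e-04. The r was 0.83, 0.46, 0.61 and 0.29 in rat batches 2, 3, 4 and 6. It was 0.49 without male 11 and female 26, and 0.51 with column run as a covariate. With 5 expression components as covariates it was 0.41 and not called (limma adjusted p = 0.0783). Gad2 was in place 91 for Gad1, and Gad1 in place 483 for Gad2.

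Gad2 had negative correlations with both peptide genes, which were not seen with 5 expression components as covariates (r = -0.018 with Sst and 0.040 with Npy). Its r with Sst was -0.45 (permutation p = 4e-05), rho was -0.50 and the larger limma adjusted p was 7.54e-04. This was negative in each batch, at -0.65, -0.69, -0.36 and -0.46 in rat batches 2, 3, 4 and 6. Leaving out female 31 and male 25 gave -0.39 (limma adjusted p = 0.00681). Its r with Npy was -0.47 (permutation p = 0.0001), rho was -0.40 and the larger limma adjusted p was 0.00141. Rat batches 2, 3 and 4 had -0.76, -0.65 and -0.29 and rat batch 6 had 0.011, and without female 31 and male 25 the value was -0.33 (limma adjusted p = 0.0498). Without rat batch 2 it was -0.34 and not called (limma adjusted p = 0.0584). With column run as a covariate, Gad2 had r = -0.39 with Sst (limma adjusted p = 0.00681) and -0.39 with Npy (limma adjusted p = 0.0163). Within rat batch 3, Gad2 was lower and both peptide genes higher in run 2 than in run 1. The r values of batch 3 alone take in that difference. Female 31 and male 25 both show the opposition. Male 25 had 13.88 for Gad2 and the highest Npy of its batch, 10.75, and female 31 had 13.86 for Gad2 and the highest Sst and Npy of rat batch 4, 11.76 and 10.18. Male 25 also had the lowest total count, 8455381. Gad1 had r = -0.29 with Sst (permutation p = 0.0179, rho = -0.38) and was not called (limma adjusted p = 0.0913).

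The 9 pairs that were not called had r between -0.29 and 0.30. Over all 15 pairs, 9 had a permutation p of Pearson's r under 0.05 before any adjustment, and 9 had one sign of r in all 4 batches. The same counts over pairs of other genes were not computed, so nothing particular to these genes can be read from them. Gad1 and Pvalb show how far a batch can depart, with r = 0.59 in rat batch 3 and 0.53 in batch 6 but -0.16 in batch 2 (-0.0135 without male 25) and -0.050 in batch 4.

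**Figure D5:**
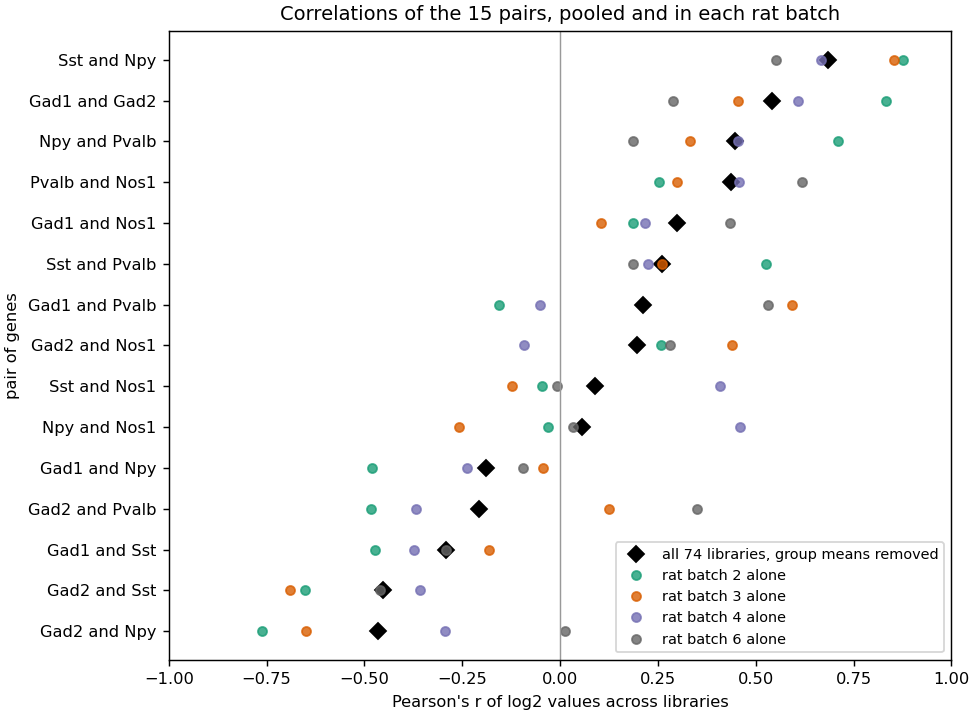
Pearson's r of log2 levels for the 15 pairs, with black diamonds for all 74 libraries after the means of each sex and rat batch were removed and colored points for each rat batch alone. Sst and Npy stand at the top with 4 positive batches, and Gad2 lies on the negative side with Sst in each batch and with Npy in all but rat batch 6.

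Measures of whole libraries moved with some of these genes. After the group means had been removed, r with the log2 total count was between -0.14 (Npy) and 0.19 (Gad2). The number of genes at 0 in a library had r = 0.31 with Npy and -0.23 with Nos1. The second principal component of the other genes, which held 5.26% of the variance, had r = -0.70 with Gad2, 0.59 with Npy, 0.51 with Pvalb and 0.42 with Sst. The first 5 components together held 61.9% of the variance of Sst, 59.2% of Gad2, 52.4% of Npy, 49.3% of Nos1, 40.6% of Pvalb and 21.3% of Gad1. Of the variance of the other genes, the 5 components held 6.91%, 5.26%, 4.55%, 3.75% and 3.3% in turn. With these 5 as covariates, of the 6 called pairs limma called Sst and Npy alone, at r = 0.67. The components were computed without the 6 genes, and what they stand for was not tested.

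The genes outside the 6 that correlated most with one of them stood with Nos1, ENSRNOG00000023657 at r = 0.85 and ENSRNOG00000024832 at r = 0.84. The most negative was ENSRNOG00000000842 with Gad2, at r = -0.79. The tables used here do not pair these identifiers with names, so markers of other cell types, the dissected region and the further genes of GABA handling were not read, and their part in the results was not tested.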

How the data were processed

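RNA-Seq was performed by the authors on polyA RNA from nucleus accumbens core of HS rats. Per the labels and methods, reads were trimmed with cutadapt and gene counts estimated with RSEM against the Ensembl rat transcriptome. The deposited values are log2(scaled count + 1), made by the authors with an upper-quartile adjustment in DESeq2, after genes with few reads had been dropped (over 1 read in at least 25% of libraries and 100 reads in all). The processing notes name build Rnor 6.0. All columns were mapped to a sample (0 unmapped).

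Scaled counts were whole numbers to within 0.0004%, so each library's scaling factor was searched between 0.55 and 2.5, and counts and totals were recovered by division. The search was first tested on simulated data. Counts served for depth, for counting error (which covers no other source) and for the total count as a covariate.

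Tests used limma 3.58.1 in R 4.3.3 (lmFit, eBayes with trend) on the deposited log2 values of 74 libraries, since rat batch 5 had 1 library. Sex was tested with rat batch as a covariate and the reverse. The sex, rat batch and gene-as-covariate fits were first tested on simulated data. P-values reflect the spread between single rats. Descriptions were computed in Python 3.11.15 (pandas 2.3.3, numpy 2.4.6, scipy 1.17.1) and drawn with matplotlib 3.10.9.

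The members, lists and tests were chosen with earlier results of these data known. Named genes were to be the 6, genes of symbol lists for GABA handling and cell types, and the 5 most and 3 least correlated genes of each. As identifiers beyond the 6 are not paired with symbols, the lists were not read, and 4 identifiers are named. Protein sequences were not used. Alternatives were pseudocounts of 8 and 0.1, a filter at a mean of 3, rank-based inverse normal values, quantile normalization, eBayes without trend or robust, further covariates and the omission of batches or libraries.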

Additional observations from a re-analysis of the deposited data

Results flagged for a closer look

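The slope of Npy on Sst differed between rat batches by a limma test of the slopes, with an adjusted p of 0.0327 when Sst was the covariate and 0.358 when Npy was. The slope was 1.77 in rat batch 2 (n = 12), 0.723 in batch 3 (n = 20), 0.421 in batch 4 (n = 26) and 0.345 in batch 6 (n = 16). Over the alternatives, chosen after seeing the data, the adjusted p ran from 0.0157 (quantile normalization) to 0.920 (5 expression components as covariates). It was 0.402 without male 25, which had the highest Npy of rat batch 2, and 0.0653 with column run as a covariate. In 24 checks for a library standing far from the rest of its sex and batch, 0 were found, where chance gives about 1.2 at 1 in 20. These covered only the males of rat batches 2, 3 and 6 and the females of rat batch 6. The other groups were not checked, among them those of female 3, female 31 and female 37.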

How the results depend on the processing

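No sex difference of the 6 genes was called under any alternative run, and Sst and Npy kept their call under every alternative run for that pair (eBayes settings were not among them), with r from 0.59 (column run as a covariate) to 0.73 (without rat batch 6). The rat batch calls of Gad1, Sst, Npy and Pvalb ended under 1 alternative alone, the column run as a covariate. There the mean difference of rat batches 4 and 6 from 2 and 3 was -0.062 for Gad1, and it turned positive for Sst (0.33), Npy (0.11) and Pvalb (0.68), with 169 genes called between rat batches. Those values rest on female 3, and the cause was not tested. With quantile normalization Gad2 was called between rat batches (adjusted p = 0.00231, mean difference 0.17), the Gad1 difference went from -0.16 to -0.071 (adjusted p = 0.0177), Gad1 and Sst were called (r = -0.40), and the SD of Gad1 was 0.098. Spearman's rho also called Gad1 and Sst (-0.38). With 5 expression components as covariates, Gad1 and Gad2 (0.41), Gad2 and Sst (-0.018), Npy and Pvalb (0.31) and Pvalb and Nos1 (0.34) lost their calls, Gad2 and Npy turned to 0.040, and 53 genes were called between the sexes. Inverse normal values ended the call of Npy and Pvalb (0.43). Leaving out rat batch 2 ended those of Gad2 and Npy (-0.34) and Npy and Pvalb (0.37), and leaving out rat batch 4 (0.43) or 6 (0.37) ended that of Pvalb and Nos1. Without rat batch 3, 5723 genes were called between rat batches. A pseudocount of 8 gave Pvalb an SD of 0.57. No paired analysis was possible because each number names a single rat and pairs none across the sexes. Depth limits Pvalb most, with as few as 21 counts in a library.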
